A study of Mus musculus with 14 samples.

Results

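The 35 genes described here drive or mark cell division, from the cyclins that open the cycle to the proteins that part the daughter cells. They were chosen by symbol from a list of cell cycle genes. No threshold on their values was used, but earlier results of these data were known. All 35 were found among the 22136 genes common to both deposited count tables. Their RNA was read in 14 polyA-enriched libraries of mouse ventricle. The design crosses genotype and operation in 4 groups, with 4 Rad knockout (Rad KO) libraries after TAC, 3 Rad KO sham libraries, 4 wild-type (WT) libraries after TAC and 3 WT sham libraries. TAC is transverse aortic constriction, a narrowing of the aortic arch that puts the left ventricle under pressure load, and sham is the operation without it. Rad, the product of Rrad, is a GTPase that holds back the L-type calcium channel of heart muscle. The labels of all 4 groups, WT included, record tamoxifen given 4 weeks after TAC. Harvest came over 2 months after the operation and over 1 month after the knockout. The sources used here give neither the Cre driver of the knockout nor the deleted exons, the strain or the age. They also do not state whether each library is 1 animal, so the p-values rest on the spread among libraries, which may be technical.

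A dividing cell passes through an ordered programme. D-type cyclins switch on their kinases in the G1 phase and release E2F factors, which turn on the genes of DNA replication. The genes of mitosis are turned on later, by complexes that bind CHR and CCAAT motifs in their promoters. Most adult cardiomyocytes have left the cycle, and dividing cells of an adult ventricle are largely fibroblasts, endothelial cells and blood-derived cells. Cardiomyocytes can copy DNA or nuclei without dividing, so RNA of these genes does not by itself mark division.

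Total counts per library ran from 14546176 to 23314792. All 6 cardiomyocyte markers were above 0 in every library, and summed to 34189 to 50536 counts per 1000000 with TMM scaling (CPM). Rrad had 164, 243, 198.6 and 119 CPM in Rad KO TAC 1 to 4, 162, 183 and 228 CPM in Rad KO sham 1 to 3, 128, 223, 242 and 208 CPM in WT TAC 1 to 4 and 213, 229 and 199.6 CPM in WT sham 1 to 3. The targeted gene therefore overlapped between the genotype labels, and differences between the labels below are differences between labelled groups. The level of Esr1, the gene of an oestrogen receptor, varied widely among libraries of the same label. Esr1 had 338.5 to 2463 CPM in the 4 Rad KO TAC libraries, 2020.3, 1.12 and 1934.5 CPM in Rad KO sham 1 to 3, 0.556 to 1.61 CPM in the 4 WT TAC libraries and 1.27, 1505 and 2226 CPM in WT sham 1 to 3. Comparisons are therefore also given with sham libraries left out by their Esr1 level. Rad KO sham 1 and 3 lay within the range of the Rad KO TAC libraries and WT sham 1 within that of the WT TAC libraries, while Rad KO sham 2 and WT sham 2 and 3 differed from the TAC libraries of their label. Where both labels enter, the libraries left out are the low ones, WT sham 1 and Rad KO sham 2. In WT this leaves only high-Esr1 sham libraries beside low-Esr1 TAC libraries. It therefore does not match TAC and sham in Esr1 for WT, and TAC and Esr1 level cannot be told apart there.

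Most of these genes had low counts. The 35 genes summed to 89368 counts over the 14 libraries, and Ccnd2 alone held 46.3% of them. Ccnd2 and Ccnd1, the D-type cyclins that activate CDK4 and CDK6, together held 59.6% of the counts, with totals of 41418 and 11804. The 9 replication genes held 21.4%, with 7.38% in Pcna, the sliding clamp of DNA polymerase. Cenpa, the histone H3 variant of centromeres, held 8.59%. For 22 of the 35 genes the mean count per library was under 50, and for 9 it was under 20. Of the 24 genes of mitotic roles 21 had a mean count under 50, and the 23 of them other than Cenpa had mean counts of 9.21 to 118.

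Among the replication genes, the totals over 14 libraries were 2267 for Mcm2, 1783 for Mcm3, 2252 for Mcm4, 1042 for Mcm5, 1628 for Mcm6 and 2433 for Mcm7, the subunits of the MCM helicase. Pcna had 6599 counts. The nucleotide-supply genes Rrm2, a subunit of ribonucleotide reductase, and Tyms, thymidylate synthase, had 710 and 444. The proliferation markers Mki67, which encodes the Ki-67 antigen, and Top2a, DNA topoisomerase II alpha, had 1650 and 895. The cyclins of S phase, G2 and mitosis were low, with 433 counts for Ccna2, 161 for Ccnb1 and 220 for Ccnb2, and 308 for their kinase Cdk1. The mitotic kinases Aurka, Aurkb and Plk1 had 295, 134 and 133 counts, and Birc5, a partner of Aurkb in the chromosomal passenger complex, had 182. The spindle checkpoint genes Bub1 and Bub1b had 129 and 244, Cdc20, the activator of the anaphase-promoting complex that the checkpoint holds back, had 415, and Ube2c, the ubiquitin-conjugating enzyme of that complex, had 490.

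The genes of the spindle and centromere were of the same order. The kinesin motors Kif11, Kif20a and Kif23 had 446, 489 and 354 counts, and the kinetochore motor Cenpe had 219. The spindle proteins Tpx2, Nusap1 and Prc1 had 445, 365 and 557, while Cenpa had 7677. Anln, an actin-binding scaffold of the contractile ring, and Ect2, which activates RhoA for cytokinesis, had 563 and 184. A count of 0 was found for 3 genes: Bub1 and Ect2 in WT TAC 1, where it allows up to 0.197 CPM (3 counts), and Plk1 in Rad KO sham 2, where it allows up to 0.198 CPM. Per kilobase of the deposited gene length, the mean level over the 14 libraries was 19.0 CPM per kb for Ccnd2, 11.9 for Pcna, 10.8 for Ccnd1 and 5.64 for Cenpa. The lowest levels on that scale were 0.109 CPM per kb for Cenpe and 0.125 for Bub1. Exons of 8 of these genes overlap a protein-coding gene of the opposite strand in GENCODE M21: Ccna2, Ccnd1, Cdc20, Kif20a, Nusap1, Prc1, Mcm7 and Ube2c. The overlap with a single gene covers 1.45% to 29.3% of their exon bases. The sources used here do not say whether counting used strand, so their counts can hold reads of the neighbour.

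Promoters of 28 of the 35 genes were matched in the RefSeq windows of GRCm38.p6, and those of Ccnd1, Ccnd2, Mcm4, Ccna2, Aurkb, Kif20a and Tpx2 were not. The 250 bases before each start were searched on both strands for the CHR motif (TTTGAA or TTCGAA), the CCAAT box (CCAAT) and E2F sites (TTTCCCGC, TTTGGCGC or TTTCGCGC). The CHR motif was found in 9 of the 20 mitotic genes (45%) and 2 of the 8 replication genes (25%), against 17.1% of all 32851 windows. The CCAAT box was found in 17 of the 20 (85%) and 7 of the 8 (87.5%), against 33.8% of all windows. E2F sites were found in 1 of the 20 (5%) and 3 of the 8 (37.5%), against 1.53% of all windows. Both a CHR motif and a CCAAT box were held by 9 of the 20 and 2 of the 8, against 6.02% of all windows. Matches are letters in a window, not tested sites.

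The promoters of 6 genes that carry the results below and differ in motif content are shown, as the last 150 bases before the RefSeq start. Capitals mark motif matches. GENCODE M21 exons cover 13, 26 and 9 bases of the Rrm2, Cdk1 and Cdc20 stretches.
Mcm2, chr6:88898781-88898930, minus strand: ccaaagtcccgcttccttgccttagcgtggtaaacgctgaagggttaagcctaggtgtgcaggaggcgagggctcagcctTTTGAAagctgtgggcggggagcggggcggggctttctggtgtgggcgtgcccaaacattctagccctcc
Rrm2, chr12:24708104-24708253, plus strand: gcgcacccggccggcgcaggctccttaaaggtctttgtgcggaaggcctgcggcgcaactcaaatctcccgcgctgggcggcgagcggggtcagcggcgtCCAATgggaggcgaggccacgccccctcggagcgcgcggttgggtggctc
Top2a, chr11:99024190-99024339, minus strand: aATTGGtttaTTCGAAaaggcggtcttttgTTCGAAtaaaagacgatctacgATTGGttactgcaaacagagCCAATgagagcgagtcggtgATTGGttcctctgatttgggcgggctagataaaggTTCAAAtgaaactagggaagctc
Cdk1, chr10:69352913-69353062, minus strand: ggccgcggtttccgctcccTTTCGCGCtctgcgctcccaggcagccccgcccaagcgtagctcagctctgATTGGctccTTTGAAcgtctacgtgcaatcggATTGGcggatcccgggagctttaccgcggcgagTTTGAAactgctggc
Cdc20, chr4:118437344-118437493, minus strand: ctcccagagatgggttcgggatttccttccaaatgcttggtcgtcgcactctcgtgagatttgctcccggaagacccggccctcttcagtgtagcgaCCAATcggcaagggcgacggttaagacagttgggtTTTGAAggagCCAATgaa
Birc5, chr11:117849087-117849236, plus strand: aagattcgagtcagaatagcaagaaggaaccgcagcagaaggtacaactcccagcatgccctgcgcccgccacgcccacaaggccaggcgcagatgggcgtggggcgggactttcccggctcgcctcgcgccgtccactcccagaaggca
Counted back from the start with its neighbouring base as -1, the stretch of Mcm2 held a CHR motif at -70, with its CCAAT box at -175 outside the stretch. Rrm2 held a CCAAT box at -50 and no CHR motif. Top2a held CHR motifs at -140, -120 and -23 and CCAAT boxes at -149, -98, -78 and -58. Cdk1 held an E2F site at -131, CCAAT boxes at -80 and -48 and CHR motifs at -71 and -15. Cdc20 held CCAAT boxes at -53 and -8 and a CHR motif at -18, and Birc5 held none of the letters searched.

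The summed counts of the 35 genes were 6241, 6164, 6896 and 5707 in Rad KO TAC 1 to 4, 4436, 4539 and 4895 in Rad KO sham 1 to 3, 5397, 8283, 10152 and 5638 in WT TAC 1 to 4, and 8634, 6378 and 6008 in WT sham 1 to 3. Per 1000000 total counts the sum averaged 407 ± 23.9 in Rad KO TAC (n = 4), 297 ± 13.8 in Rad KO sham (n = 3), 442 ± 104 in WT TAC (n = 4) and 379 ± 8.11 in WT sham (n = 3; mean ± SD). The Rad KO TAC libraries, at 389.6 to 442, all lay above the Rad KO sham libraries, at 281 to 305. The WT TAC libraries, at 337 to 575, lay on both sides of the WT sham libraries, at 370.3 to 386. The 3 Rad KO sham libraries were the lowest of all 14. With TMM scaling the means were 401 ± 13.1, 315 ± 15.2, 434 ± 95.7 and 372 ± 8.98 CPM in the same 4 groups. In bulk RNA, fewer cycling cells and less of these RNAs per cell cannot be told apart.

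**Figure D1:**
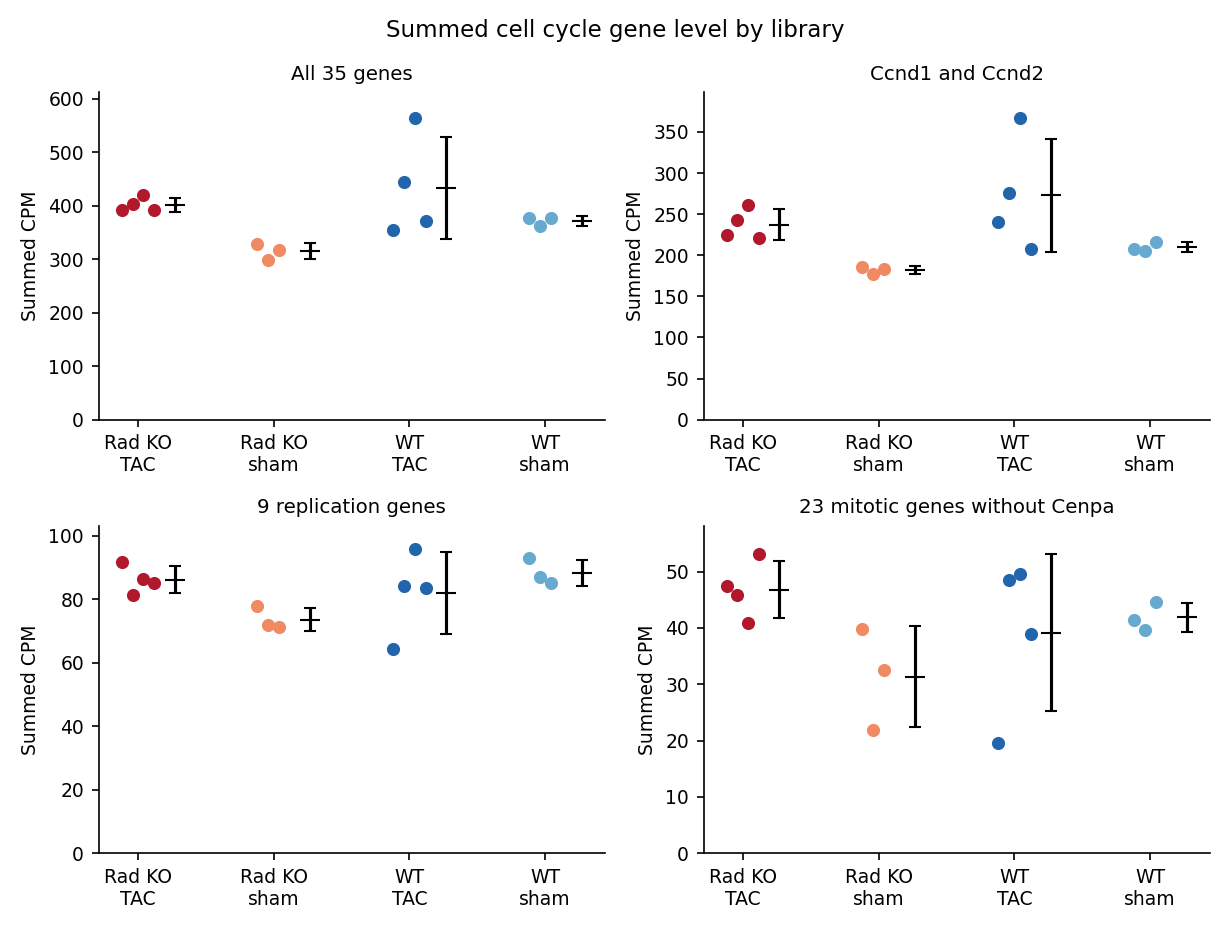
Summed CPM of all 35 genes, of Ccnd1 and Ccnd2, of the 9 replication genes and of the 23 mitotic genes other than Cenpa, by group. Points are libraries, and the black mark with its bar is the mean ± SD (n = 4 for TAC, n = 3 for sham). In Rad KO the TAC libraries lie above the sham libraries in each panel, while in WT the TAC and sham libraries overlap in each.

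The sum divides by role. The D-type cyclins summed to 237 ± 18.8 CPM in Rad KO TAC, 182 ± 4.69 in Rad KO sham, 273 ± 68.4 in WT TAC and 209.9 ± 5.90 in WT sham. The replication genes summed to 86.1 ± 4.30, 73.6 ± 3.70, 81.9 ± 13.0 and 88.4 ± 4.07 CPM in the same groups. In Rad KO the libraries of TAC and sham did not overlap for either role. The 23 mitotic genes other than Cenpa summed to 47.4, 45.8, 40.8 and 53.2 CPM in Rad KO TAC 1 to 4, 39.8, 21.8 and 32.5 CPM in Rad KO sham 1 to 3, 19.6, 48.6, 49.6 and 38.9 CPM in WT TAC 1 to 4 and 41.3, 39.6 and 44.6 CPM in WT sham 1 to 3. WT TAC 1 was the lowest library and Rad KO sham 2 the next, while Rad KO sham 1 came close to the lowest Rad KO TAC library. WT TAC 1 was the lowest of the 14 libraries for 15 of the 35 genes, 13 of them among the 24 of mitotic roles, and Rad KO sham 2 was the lowest for 10. WT TAC 3 was the highest for 10 genes and Rad KO TAC 4 for 8.

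**Figure D2:**
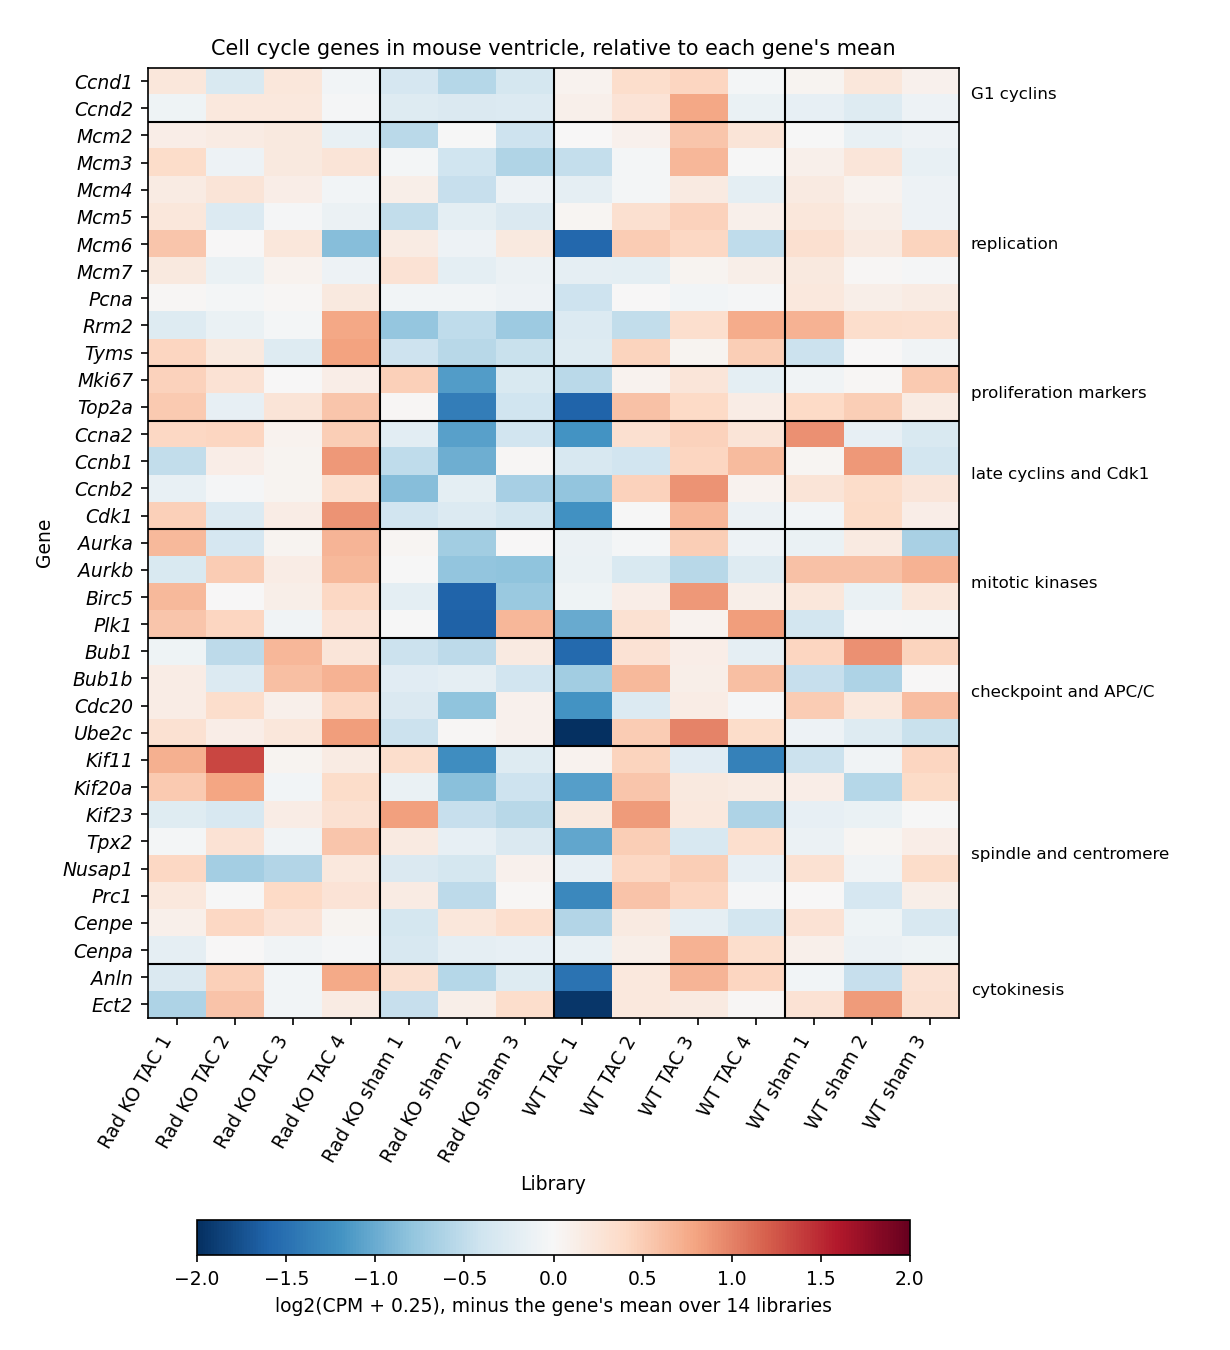
Level of each of the 35 genes (rows, grouped by role) in each of the 14 libraries (columns), as log2(CPM + 0.25) minus the gene's mean over all libraries, with colours limited at 2 in either direction. The column of WT TAC 1 is blue for most mitotic genes, and the rows of Ccnd1, Ccnd2, Pcna and Cenpa vary little.

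In the libraries labelled Rad KO, no cell cycle gene passed the adjusted test of TAC against sham, although nearly all of them leaned upwards. Of the 34 genes that passed the filter on low counts, 0 were called higher and 0 lower at an adjusted p of 0.05 (edgeR's quasi-likelihood test with Benjamini-Hochberg adjustment over all genes tested, as for every adjusted p below). Of all 14122 genes tested, 1.05% were called higher and 0.644% lower. DESeq2 called 1 of the genes, Ccnd2. At an unadjusted p under 0.05, 11 of the 34 were higher (32.4%, beside 9.4% of all genes) and 0 were lower (beside 7.95%). That number was 6 of 34 without Rad KO sham 2 (17.6%, beside 6.81% of all genes) and also 6 of 34 without Rad KO sham 3 (17.6%, beside 7.8%). The log2 fold change was above 0 for 32 of the 34, beside 51.4% of all genes, with a median of 0.49 against 0.01 over all genes. By role it was above 0 for 2 of 2 D-type cyclins, 8 of 9 replication genes and 22 of 23 mitotic genes. Bub1 did not pass the filter, with counts of 7, 4, 15 and 9 in Rad KO TAC 1 to 4 and 4, 4 and 9 in Rad KO sham 1 to 3.

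The D-type cyclins had the smallest p of the 34 genes. Ccnd2 (ENSMUSG00000000184, chromosome 6, 127125162 to 127152193, mm10, minus strand) stood at 166, 202, 203 and 173 CPM in Rad KO TAC 1 to 4 and 146, 143 and 145 CPM in Rad KO sham 1 to 3. Ccnd1 (ENSMUSG00000070348, chromosome 7, 144929931 to 144939925, minus strand) stood at 58.5, 40.4, 58.2 and 47.8 CPM in Rad KO TAC and 39.4, 33.3 and 39.1 CPM in Rad KO sham. Every TAC library lay above every sham library for both genes. On the log2 scale the fold change of TAC against sham was 0.37 (SE 0.10, adjusted p = 0.0921) for Ccnd2, with adjusted p of 0.0203 to 0.642 over 13 alternatives. It was 0.47 (SE 0.14, adjusted p = 0.135) for Ccnd1, with 0.0391 to 0.561. In the authors' deposited table Ccnd2 had a log2 fold change of 0.37 with an adjusted p of 0.0209, the only 1 of the 35 genes called there, beside 1.83% of its 23925 genes called higher and 1.18% lower.

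Among the replication genes, Mcm3 had 9.68, 6.92, 8.64 and 8.98 CPM in Rad KO TAC and 7.27, 5.60 and 4.85 CPM in Rad KO sham. The log2 fold change was 0.54 (SE 0.19, adjusted p = 0.185), and Rad KO TAC 2 lay below Rad KO sham 1. Rrm2 had 2.33, 2.55, 2.74 and 5.004 CPM in Rad KO TAC and 1.56, 1.91 and 1.62 CPM in Rad KO sham, with Rad KO TAC 4 apart from its group. Tyms had 2.58, 2.15, 1.52 and 3.43 CPM in Rad KO TAC and 1.34, 1.19 and 1.29 CPM in Rad KO sham. Neither gene overlapped between the operations, and the log2 fold changes were 0.89 (SE 0.32, adjusted p = 0.193) for Rrm2 and 0.93 (SE 0.33, adjusted p = 0.186) for Tyms. Pcna, at 28.8, 27.5, 28.7 and 32.6 CPM in Rad KO TAC and 27.4, 27.5 and 26.6 CPM in Rad KO sham, had a log2 fold change of 0.12 (SE 0.10, adjusted p = 0.566), with ranges barely apart. Mcm7 had 12.1, 9.60, 11.01 and 9.73 CPM in Rad KO TAC and 12.9, 9.09 and 9.64 CPM in Rad KO sham, and its groups overlapped.

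The mitotic genes had larger fold changes on far fewer reads. Top2a had 81, 47, 69 and 76 counts in Rad KO TAC 1 to 4 and 48, 18 and 40 in Rad KO sham 1 to 3, a log2 fold change of 0.86 (SE 0.35, adjusted p = 0.237). Ccna2 had 37, 36, 29 and 36 counts in Rad KO TAC and 19, 10 and 19 in Rad KO sham, and the ranges stayed apart in CPM, at 1.76 to 2.47 and 0.659 to 1.41. Its log2 fold change was 1.02 (SE 0.33, adjusted p = 0.145). Kif20a had 47, 55, 31 and 38 counts in Rad KO TAC and 24, 15 and 22 in Rad KO sham, a log2 fold change of 0.99 (SE 0.32, adjusted p = 0.152). The Cdk1 counts were 29, 15, 23 and 37 in Rad KO TAC and 12, 15 and 14 in Rad KO sham, a log2 fold change of 0.86 (SE 0.38, adjusted p = 0.280). For Birc5 the largest fold change of the 34 genes, 1.55 on the log2 scale (SE 0.57, adjusted p = 0.196), rested on 20, 11, 13 and 15 counts in Rad KO TAC and 8, 1 and 5 in Rad KO sham. Mki67, a common marker of cycling cells, overlapped, with 153, 130, 114 and 111 counts in Rad KO TAC and 131, 46 and 86 in Rad KO sham.

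The ranges of TAC and sham did not overlap for 11 of the 34 genes, all higher in TAC: Ccnd1, Ccnd2, Pcna, Rrm2, Tyms, Ccna2, Ccnb2, Birc5, Cdc20, Ube2c and Kif20a. Among all genes 8.26% were higher and 7.83% lower without overlap. Per 1000000 total counts, without TMM scaling, the number was 13 of 34 higher and 0 lower, beside 15.8% higher and 3.59% lower of all genes. Without Rad KO sham 2, the sham library unlike the TAC libraries in Esr1, 0 of the 34 were called, 29 of 34 were above 0 and the median log2 fold change was 0.38. Without Rad KO sham 1 and 3, whose Esr1 was high as in the TAC libraries, 0 of 35 genes were called, 10 had an unadjusted p under 0.05 and were higher (28.6%, beside 4.17% of all genes), and 33 were above 0. The 1 sham library that this leaves is Rad KO sham 2, low in Esr1 and the lowest for 10 genes, and it is taken to vary as the TAC libraries do.

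**Figure D3:**
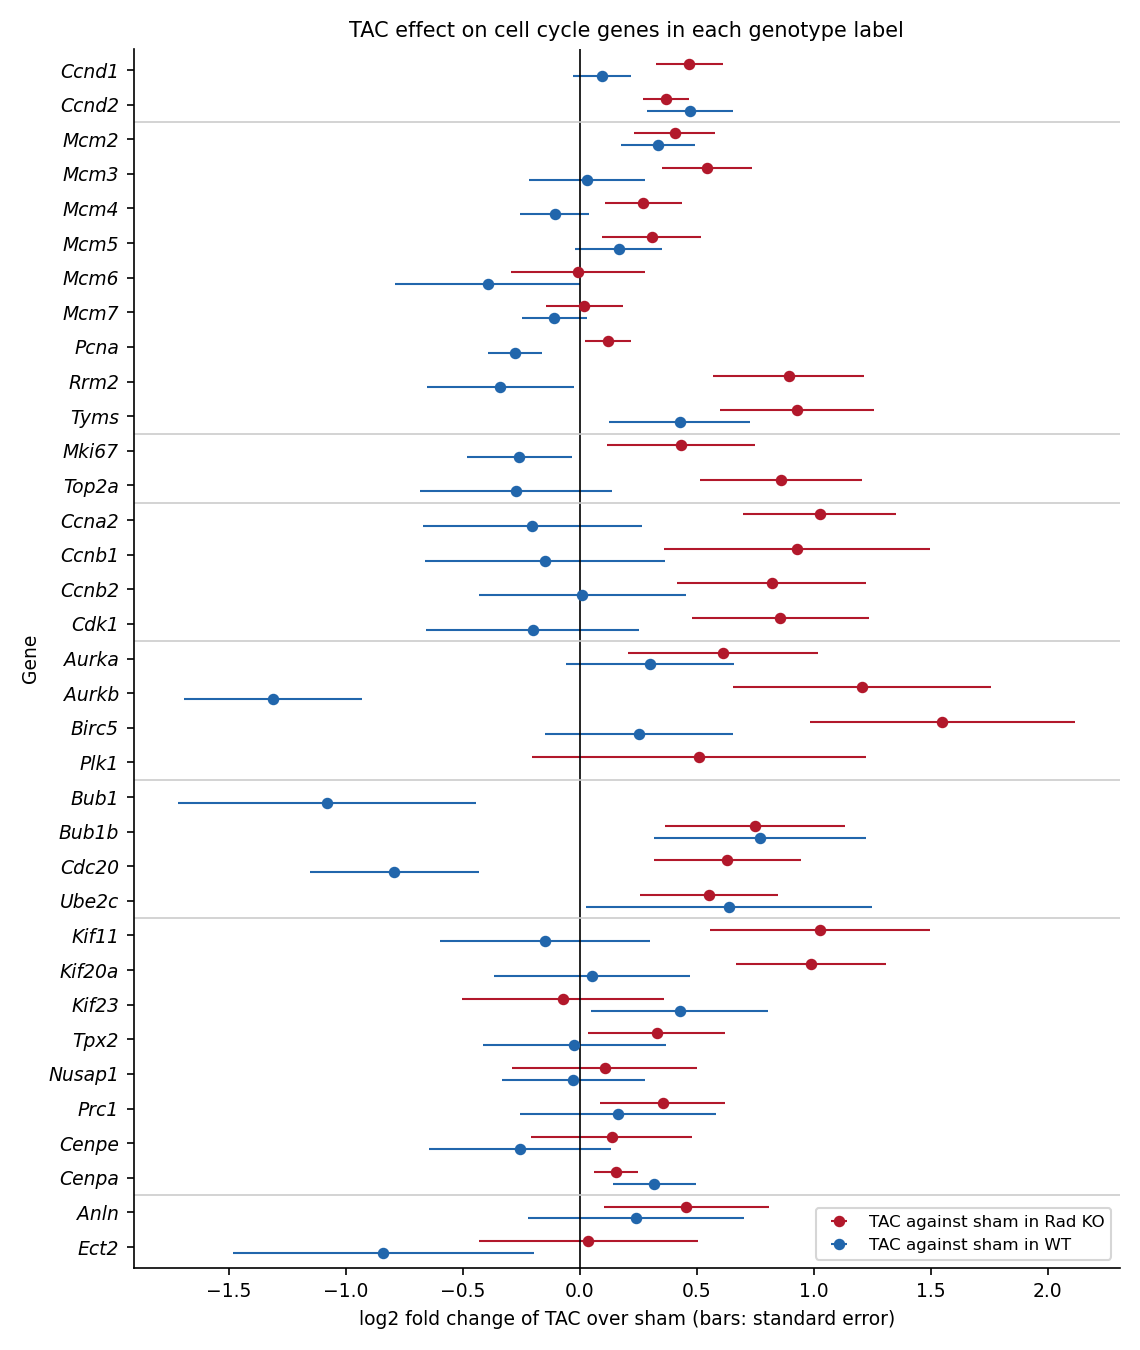
Log2 fold change of TAC over sham for each gene that passed the filter, in Rad KO (red) and in WT (blue), with bars of 1 standard error from edgeR. In Rad KO 32 of 34 points lie above 0, and in WT 16 of 34 do.

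In WT ventricles the 35 genes showed no common direction after TAC. Of 34 tested, 0 were called higher and 0 lower, beside 2% and 1.08% of 14323 genes, and DESeq2 also called 0. Plk1 did not pass the filter, with 2, 13, 10 and 17 counts in WT TAC 1 to 4 and 8, 9 and 8 in WT sham 1 to 3. At an unadjusted p under 0.05 only Ccnd2 was higher and Aurkb and Pcna were lower, 2.94% and 5.88% of the genes beside 9.55% and 7.81% of all genes. The log2 fold change was above 0 for 16 of 34, beside 49.7% of all genes, and its median was -0.03 against 0.00 over all genes. Without WT TAC 1, the library lowest for most mitotic genes, 22 of 34 were above 0, 5 were higher at an unadjusted p under 0.05 (14.7%, beside 10.9% of all genes) and 0 were called. Without WT TAC 3, the library highest for 10 genes, the move was the other way. There 13 of 34 were above 0, and 0 were called. At an unadjusted p under 0.05, 0 were higher (beside 7.34% of all genes) and 3 lower (8.82%, beside 6.73%). Without WT sham 2 and 3, whose Esr1 was high, 20 of 35 were above 0 and 0 had an unadjusted p under 0.05, beside 4.01% of 15264 genes higher and 2.19% lower, with 0 genes called among all of them. This leaves WT sham 1 as the single sham library, and it is taken to vary as the TAC libraries do.

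Ccnd2 had 189, 213, 299.8 and 159 CPM in WT TAC 1 to 4 and 157, 147 and 164 CPM in WT sham 1 to 3. The lowest TAC library lay within the sham range, and the log2 fold change was 0.47 (SE 0.18, adjusted p = 0.217). Ccnd1 overlapped too, at 52.1, 63.6, 66.8 and 48.3 CPM in WT TAC and 51.5, 58.2 and 52.9 CPM in WT sham. Pcna had 21.3, 28.6, 27.2 and 27.9 CPM in WT TAC and 33.0, 30.8 and 31.8 CPM in WT sham, a log2 fold change of -0.28 (SE 0.12, adjusted p = 0.248), and all its TAC libraries lay below the sham libraries. Aurkb (ENSMUSG00000020897, chromosome 11, 69045647 to 69051664, plus strand), the kinase of the chromosomal passenger complex, stood at 7, 7, 5 and 6 counts in WT TAC and 21, 16 and 16 in WT sham. These are 0.377 ± 0.0751 and 0.943 ± 0.0528 CPM, a log2 fold change of -1.31 (SE 0.38, adjusted p = 0.0990, range 0.0831 to 0.910 over 13 alternatives). Its partner Birc5 had 10, 15, 27 and 12 counts in WT TAC and 20, 11 and 14 in WT sham and overlapped.

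The ranges in WT were apart for 6 genes. Mcm2 was higher in TAC, at 9.65, 10.2, 14.2 and 11.5 CPM in WT TAC and 9.58, 8.68 and 8.91 CPM in WT sham. Pcna, Aurkb, Bub1, Cdc20 and Ect2 were lower. Among all genes 8.2% were higher and 8.6% lower without overlap, beside 2.94% and 14.7% of the 34. Per 1000000 total counts 1 was higher and 4 were lower, beside 7.78% and 7.77% of all genes. Cdc20 had 9, 25, 34 and 25 counts in WT TAC and 57, 35 and 43 in WT sham, a log2 fold change of -0.79 (SE 0.36, adjusted p = 0.290). Rrm2 overlapped, with 35, 36, 65 and 74 counts in WT TAC and 108, 65 and 58 in WT sham, and a log2 fold change of -0.34 (SE 0.31, adjusted p = 0.642). Several mitotic and replication genes named for Rad KO overlapped in WT. Top2a had 15, 100, 84 and 59 counts in WT TAC 1 to 4 and 107, 88 and 63 in WT sham 1 to 3. Ccna2 had 9, 40, 43 and 31 counts in WT TAC and 77, 26 and 21 in WT sham. Kif20a had 12, 56, 41 and 34 in WT TAC and 50, 22 and 42 in WT sham. In CPM, WT TAC 1 was the lowest of the 14 libraries for all 3, and TAC and sham overlapped. Cdk1 had 6, 23, 38 and 17 counts in WT TAC and 27, 30 and 22 in WT sham, and Mcm3 had 5.32, 7.29, 11.96 and 7.45 CPM in WT TAC and 8.001, 8.90 and 6.71 CPM in WT sham. Mcm7 had 9.25, 9.17, 10.96 and 11.4 CPM in WT TAC and 12.1, 10.7 and 10.3 CPM in WT sham, and overlapped as it did in Rad KO. In the authors' deposited table for WT 0 of the 35 genes were called, beside 2.42% of 24279 genes higher and 1.33% lower.

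Over both genotype labels, with the label as a term of the model, 2 of the 35 genes rose with TAC: Ccnd2 and Mcm2. They are 5.71% of the 35, beside 6.4% of 14731 genes called higher, so the share of these genes is near that of all genes. None of the 35 was called lower, beside 4.75% of all genes. Ccnd2 averaged 186 ± 19.6 CPM in Rad KO TAC (n = 4) and 145 ± 1.36 CPM in Rad KO sham (n = 3), and 215 ± 60.4 CPM in WT TAC (n = 4) and 156 ± 8.35 CPM in WT sham (n = 3). The joint log2 fold change was 0.42 (SE 0.11, adjusted p = 0.0224). It was lost without WT sham 2 (0.39, adjusted p = 0.0528) and without the low-Esr1 sham libraries WT sham 1 and Rad KO sham 2 (0.41, adjusted p = 0.0828), and adjusted p ranged from 0.00438 to 0.0828 over 19 alternatives.

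Mcm2 (ENSMUSG00000002870, chromosome 6, 88883474 to 88898780, minus strand), a subunit of the replicative helicase that is loaded in G1, stood at 10.6, 10.8, 11.01 and 8.64 CPM in Rad KO TAC 1 to 4 and 6.53, 9.62 and 7.18 CPM in Rad KO sham 1 to 3. Only Rad KO TAC 4 lay below the highest of the sham libraries, and the WT ranges, given above, were narrowly apart. The joint log2 fold change was 0.36 (SE 0.11, adjusted p = 0.0475). The call did not hold when any 1 of 10 of the 14 libraries was left out, nor without the filter or with the replicate number as a block. Adjusted p ranged from 0.0267 to 0.112 over 19 alternatives, with log2 fold changes of 0.31 to 0.47. The other MCM subunits were not called.

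The remaining genes of this comparison missed the threshold. At an unadjusted p under 0.05, 7 of 35 were higher (20%, beside 13.6% of all genes) and 0 lower: Ccnd2, Mcm2, Ccnd1, Tyms, Birc5, Bub1b and Cenpa. Tyms had a log2 fold change of 0.66 (SE 0.22, adjusted p = 0.0611), with 1.51, 2.63, 1.95 and 2.70 CPM in WT TAC and 1.31, 1.87 and 1.76 CPM in WT sham. DESeq2 called it at an adjusted p of 0.0418, and edgeR's adjusted p was 0.0292 without WT TAC 1. Bub1b had 18, 12, 27 and 26 counts in Rad KO TAC, 11, 13 and 11 in Rad KO sham, 8, 32, 20 and 25 in WT TAC and 15, 10 and 16 in WT sham. Its log2 fold change was 0.75 (SE 0.29, adjusted p = 0.105, and 0.0341 without WT TAC 1). Cenpa had 28.8, 32.6, 30.8 and 32.1 CPM in Rad KO TAC, 26.1, 28.9 and 29.2 CPM in Rad KO sham, 29.2, 35.2, 52.9 and 41.5 CPM in WT TAC and 35.1, 30.0 and 30.6 CPM in WT sham, with overlap in both labels. For Ccnd1, Birc5 and Cenpa the log2 fold changes were 0.27 (SE 0.11), 0.79 (SE 0.36) and 0.23 (SE 0.11), with adjusted p of 0.112, 0.180 and 0.171. In all, 27 of 35 were above 0, beside 49.6% of all genes, and the median was 0.25 against 0.00. The genes called numbered 5 of 35 without WT TAC 1, the library lowest for 15 of them, and 0 of 35 without WT sham 2. Leaving out 1 library at a time gave 1027 to 2064 called genes among all tested. The share of all genes called is not given for either fit, so the 5 cannot be set against it. The genes higher at an unadjusted p under 0.05 without WT TAC 1 numbered 12 of 35 (34.3%, beside 14.5% of all genes). Without WT sham 1 and Rad KO sham 2 they numbered 3 of 35 (8.57%, beside 11.6%). For 0 of the 35 did all TAC libraries of both labels lie apart from all sham libraries, beside 1.64% of all genes higher and 1.11% lower.

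**Figure D4:**
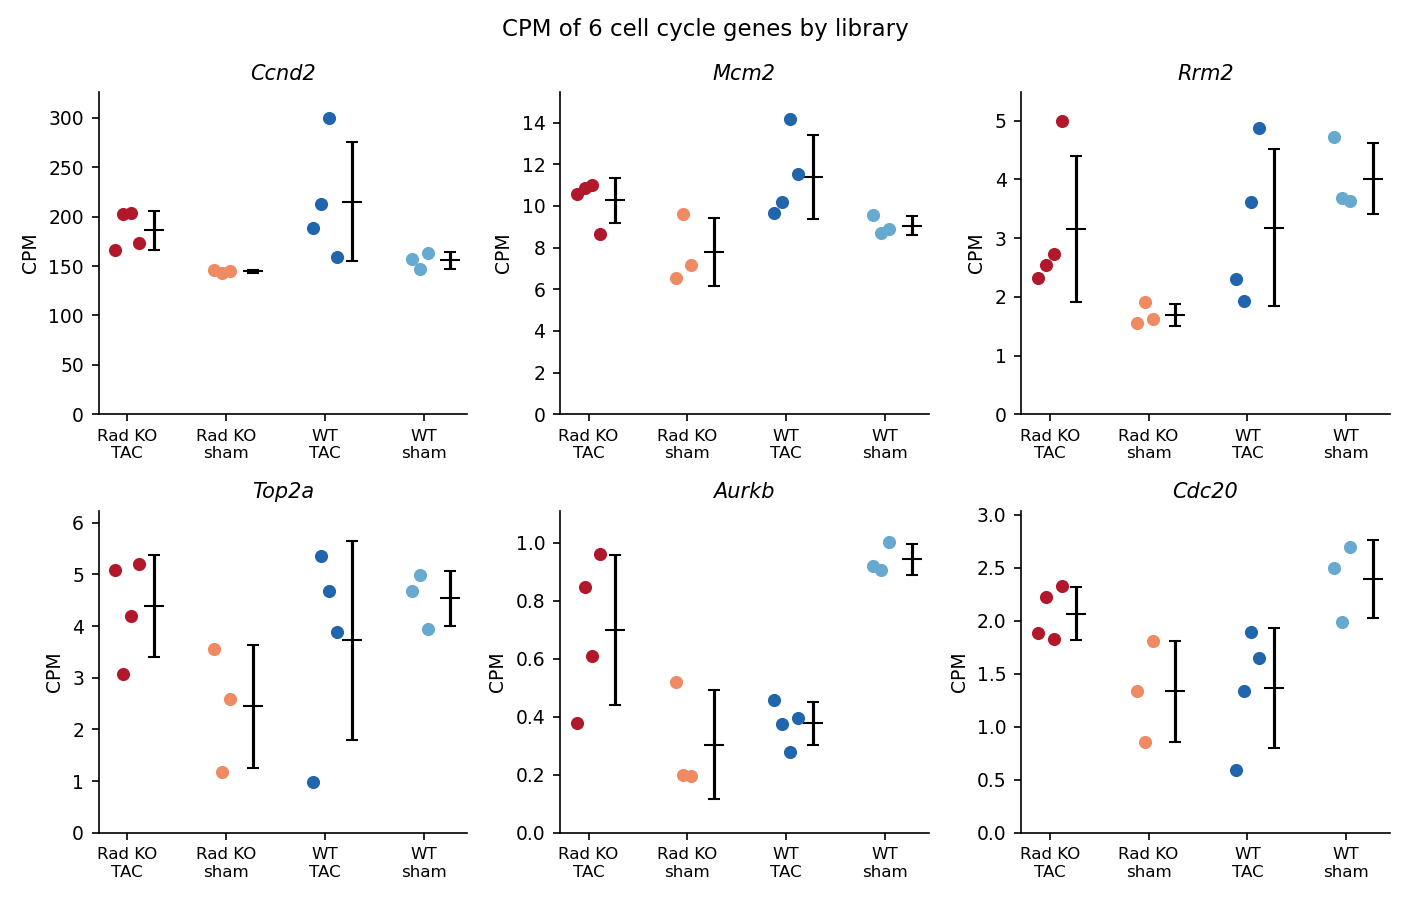
CPM of the cyclin Ccnd2, the replication genes Mcm2 and Rrm2, the topoisomerase Top2a, the mitotic kinase Aurkb and the checkpoint target Cdc20 in each library, by group. Points are libraries and the black mark with its bar is the mean ± SD (n = 4 for TAC, n = 3 for sham). Rrm2, Aurkb and Cdc20 have their lowest group mean in Rad KO sham and their highest in WT sham.

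The difference between the TAC effects of the labels was tested in 1 model of all 14 libraries. The effect in Rad KO minus that in WT gave 0 called genes among the 35 and 0% of all 14731 genes in either direction, and DESeq2 called 0 of the 35. At an unadjusted p under 0.05, 4 of the 35 were higher in Rad KO (11.4%, beside 2.81% of all genes) and 0 lower (beside 2.31%). These were Aurkb, with a difference of 2.51 on the log2 scale (SE 0.63, adjusted p = 0.672), Cdc20 with 1.42 (SE 0.48, adjusted p = 0.815), Rrm2 with 1.23 (SE 0.47, adjusted p = 0.904) and Pcna with 0.39 (SE 0.15, adjusted p = 0.882). The difference was above 0 for 30 of 35 genes, beside 50.1% of all genes, among them 9 of 9 replication and 20 of 24 mitotic genes, and its median was 0.39 against 0.00. Without WT sham 1 and Rad KO sham 2 it was above 0 for 27, and 1 had an unadjusted p under 0.05 (2.86%, beside 2.51% of all genes). The number at an unadjusted p under 0.05 was 9 of 35 without Rad KO sham 1 (25.7%, beside 2.93%) and 9 of 35 without WT TAC 3 (25.7%, beside 3.07%).

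Between the sham groups, the libraries labelled Rad KO had less of most of these RNAs than WT, and none of the differences passed the adjusted test. Of 35 genes tested 0 were called in either direction, beside 0% of 14731 genes, and DESeq2 called 0 of the 35. At an unadjusted p under 0.05, 7 were lower in Rad KO (20%, beside 2.78% of all genes) and 0 higher (beside 2.97%). The 7 became 3 without WT sham 1 (8.57%, beside 2.98%), 4 without Rad KO sham 3 (11.4%, beside 3.66%) and 11 without WT TAC 1 (31.4%, beside 3.2%). Only 5 of 35 had a log2 fold change above 0, beside 49.4% of all genes, with 0 of 9 replication genes and 5 of 24 mitotic genes, and the median was -0.36 against 0.00. The ranges were apart for 13 of 35, all lower in Rad KO: Ccnd1, Ccnd2, Mcm5, Pcna, Rrm2, Top2a, Ccnb2, Cdk1, Aurkb, Birc5, Bub1, Cdc20 and Cenpa. Of all genes 7.75% were lower and 8.1% higher without overlap. Per 1000000 total counts 17 of 35 were lower and 0 higher, beside 16.5% and 2.85% of all genes. This comparison uses the same 3 Rad KO sham libraries as TAC against sham in Rad KO and as the difference, so the 3 results are not separate evidence.

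The smallest p here belonged to 3 genes, each with an adjusted p of 0.730. Ccnd1 averaged 37.2 ± 3.45 CPM in Rad KO sham and 54.2 ± 3.51 CPM in WT sham (n = 3 each), a log2 fold change of -0.54 (SE 0.15). Rrm2 had 21, 29 and 25 counts in Rad KO sham and 108, 65 and 58 in WT sham, a log2 fold change of -1.24 (SE 0.36). Aurkb had 7, 3 and 3 counts in Rad KO sham and 21, 16 and 16 in WT sham, a log2 fold change of -1.64 (SE 0.48). The libraries of the labels were well apart for each. The other 4 had an adjusted p of 0.831, with log2 fold changes of -0.43 (SE 0.20) for Mcm5, -1.09 (SE 0.48) for Ccnb2, -1.29 (SE 0.55) for Birc5 and -0.84 (SE 0.36) for Cdc20. The Cdc20 counts in Rad KO TAC were 30, 34, 30 and 34. Cdc20 had 18, 13 and 28 counts in Rad KO sham and 57, 35 and 43 in WT sham, and Ccnb2 had 5, 11 and 7 in Rad KO sham and 25, 21 and 17 in WT sham. Mcm5 had 3.04, 3.82 and 3.56 CPM in Rad KO sham and 5.16, 4.76 and 4.08 CPM in WT sham. After TAC, Mcm5 had 5.15, 3.59, 4.32 and 4.04 CPM in Rad KO and 4.53, 5.52, 6.12 and 4.75 CPM in WT, and Ccnb2 had 12, 13, 15 and 17 counts in Rad KO and 6, 24, 33 and 14 in WT. Without WT sham 1 and Rad KO sham 2, 4 genes were lower at an unadjusted p under 0.05 (11.4%, beside 2.13% of all genes) and 9 were above 0.

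Between the TAC groups, Rad KO and WT differed past the threshold in none of these genes. Esr1 was high in every Rad KO TAC library and low in every WT TAC library, so label and Esr1 level cannot be told apart here. Of 35 genes 0 were called, beside 0.00679% of 14731 genes higher and as many lower, and DESeq2 called 0 of the 35. The ranges of the labels overlapped for all 35 genes, while 2.15% of all genes were higher in Rad KO and 1.59% lower without overlap (1.97% and 1.64% per 1000000 total counts). At an unadjusted p under 0.05, Aurkb was higher in Rad KO (2.86% of the genes, beside 4.13% of all genes), with 6, 13, 10 and 14 counts in Rad KO TAC and 7, 7, 5 and 6 in WT TAC. Its log2 fold change was 0.88 (SE 0.41, adjusted p = 0.641). Cenpa was lower in Rad KO (2.86%, beside 3.63% of all genes), at 31.1 ± 1.70 CPM in Rad KO TAC and 39.7 ± 10.1 CPM in WT TAC (n = 4 each), a log2 fold change of -0.35 (SE 0.14, adjusted p = 0.498). The log2 fold change was above 0 for 26 of 35 genes, beside 49.6% of all genes, with a median of 0.14 against 0.00, and for 13 of 35 without WT TAC 1. An adjusted p above the threshold does not show that the levels were equal.

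Another 69 genes of the cycle (CDK inhibitors, retinoblastoma and E2F factors, DREAM and FOXM1 factors, other cyclins and CDKs, and other replication and mitotic genes) were read alongside. In Rad KO 0 of 59 tested were called after TAC, beside 1.05% of all genes higher and 0.644% lower. Among the 59, 10 were higher and 2 lower at an unadjusted p under 0.05, beside 9.4% and 7.95% of all genes, with 37 above 0 and a median log2 fold change of 0.11 (0.01 over all genes). The 3 smallest p belonged to Racgap1, the partner of Kif23 in the centralspindlin complex, with a log2 fold change of 0.87 (SE 0.27, adjusted p = 0.142), Cdt1, which loads the MCM helicase, with 0.93 (SE 0.33, adjusted p = 0.191), and Nuf2, an outer kinetochore protein, with 1.51 (SE 0.57, adjusted p = 0.206). In WT 1 of 61 was called, beside 2% of all genes higher and 1.08% lower. This was the kinetochore-associated gene Cenpf, which fell (log2 fold change -2.94, SE 0.26, adjusted p = 0.00149). Without WT sham 2 and 3, which leaves WT sham 1 as the single sham library, its log2 fold change was -2.51. Of the 61, 21 were above 0, with a median of -0.11 (0.00 over all genes). Over both labels 1 of 61 rose and 1 fell, beside 6.4% and 4.75% of all genes, with 34 above 0 and a median of 0.04 (0.00 over all genes). Cdkn1a, which encodes the CDK inhibitor p21, had 49.8, 24.1, 26.0 and 28.1 CPM in Rad KO TAC, 13.2, 23.3 and 22.4 CPM in Rad KO sham, 23.3, 35.01, 41.3 and 18.8 CPM in WT TAC and 16.8, 19.3 and 16.3 CPM in WT sham. In Rad KO every TAC library lay above every sham library, and in WT only WT TAC 4 lay within the sham range. The joint effect was a log2 fold change of 0.73 (SE 0.20, adjusted p = 0.0245, range 0.00316 to 0.0631 over 19 alternatives). The call was lost without any 1 of Rad KO sham 1, WT TAC 3, WT sham 1 and WT sham 3, and without the low-Esr1 sham libraries, at adjusted p of 0.0505 to 0.0631. Cenpf, the gene that fell, had a log2 fold change of -1.90 (SE 0.39, adjusted p = 0.0055). In Rad KO it had 10.3, 18.1, 17.9 and 28.7 CPM after TAC and 57.0, 14.6 and 28.8 CPM in sham, and these overlapped. In WT it had 9.91, 8.74, 5.23 and 4.42 CPM after TAC and 40.3, 62.0 and 60.7 CPM in sham, which were apart. In each label the lowest sham value of Cenpf was that of the low-Esr1 library, Rad KO sham 2 or WT sham 1. Among the Rad KO TAC libraries Cenpf was lowest in Rad KO TAC 1, while Esr1 was lowest in Rad KO TAC 2. In WT, TAC and Esr1 level cannot be told apart for Cenpf, and a link to Esr1 was not tested.

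Between labels 0 of the 61 genes were called in the difference of the TAC effects, in sham or in TAC. Of all 14731 genes 0% were called in the difference and in sham, and 0.00679% higher and as many lower in TAC. The 61 genes are therefore not set apart from all genes by these counts. In the difference the smallest p belonged to Cenpf at 2.10 (SE 0.56, adjusted p = 0.672). There 47 of 61 were above 0, beside 50.1% of all genes, with a median of 0.21 (0.00 over all genes). For Rad KO against WT, 22 of 61 were above 0 in sham and 37 of 61 in TAC, beside 49.4% and 49.6% of all genes. The medians were -0.12 and 0.07.

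Markers of other ventricular cells were summed in the same libraries. The 6 fibroblast markers summed to 888 to 1643 CPM in Rad KO TAC, 695 to 925 in Rad KO sham, 964 to 1472 in WT TAC and 643 to 983 in WT sham, and 1 of 6 was called higher after TAC in Rad KO, 1 of 6 in WT and 2 of 6 over both labels. The 7 macrophage markers summed to 138 to 306 CPM in Rad KO TAC, 189 to 218 in Rad KO sham, 190.5 to 309 in WT TAC and 224 to 281 in WT sham, with 0 of 7 called in these 3 comparisons. The 5 endothelial markers stayed at 515 to 856 CPM over all libraries, with 0 of 5 called. Lymphocyte markers were near 0, at 1.0 to 3.1 CPM for the sum of 6. Those at 0 included Cd3e in Rad KO TAC 4 and WT TAC 3, Cd3g in Rad KO sham 3 and WT sham 3, and Ms4a1 in WT sham 2 and 3. In all, 2 of the 6 were at 0 in Rad KO TAC 4, in Rad KO sham 3 and in WT sham 3. In WT TAC 1, WT TAC 3 and WT sham 2 it was 1 of the 6. Neutrophil markers summed to 0.3 to 4.2 CPM. After TAC in Rad KO the 1 lymphocyte marker tested (log2 fold change 1.17) and the 1 neutrophil marker tested (1.71) had an unadjusted p under 0.05, and neither was called. Over both labels 1 of 2 tested lymphocyte markers was called higher, and both had an unadjusted p under 0.05, with a median log2 fold change of 1.52. Cardiomyocyte markers had 1 of 6 called lower after TAC in Rad KO and 0 of 6 in WT, mural cell markers 0 of 4 and 1 of 5 lower, erythroid markers 0 of 3 in both and adipocyte markers 0 of 2 in Rad KO and 1 of 2 higher in WT. Of the 5 Schwann cell markers 4 could be tested, and 3 were called lower after TAC in WT and 0 of 4 in Rad KO. All 4 were below 0 in both labels, with medians of -1.51 in WT and -0.76 in Rad KO, and 0 were called in the difference. After TAC 1.05% of all genes were called higher and 0.644% lower in Rad KO, and 2% and 1.08% in WT. Over both labels the shares were 6.4% and 4.75%. In sham, 0 of 6 fibroblast and 0 of 7 macrophage markers were called between the labels, beside 0% of all genes. For Rad KO against WT in sham, 0 of 7 macrophage, 0 of 3 erythroid and 0 of 1 neutrophil markers were above 0. Of the fibroblast markers 2 of 6 were, beside 49.4% of all genes. The median log2 fold changes of cardiomyocyte, endothelial, mural, lymphocyte, Schwann and adipocyte markers were above 0, at 0.04 to 0.92. The part of these cell types in the cell cycle results was not tested.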

How the data were processed

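Per the file headers, the 2 tables hold the authors' raw count of each gene in each library, 1 table per genotype label. Per the file headers they also hold the authors' normalized signal and FPKM values, not used here, and their log2 fold changes with p-value and adjusted p-value. The submitters' processing notes name HISAT2, DESeq2, edgeR and mm10, without versions or roles, and the sources used here give neither the read counter nor its strand setting. Every column of library values matched a label.

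Tests used the deposited counts in edgeR 4.0.16 (R 4.3.3): TMM scaling, filterByExpr (minimum count 10, minimum total 15), quasi-likelihood F-test, and Benjamini-Hochberg adjustment over all genes tested with a threshold of 0.05. TAC effects within a label used its 7 libraries, and the other comparisons 1 model of 14 libraries. The SE is the fold change over the square root of F. CPM are TMM-scaled counts per 1000000, scaled jointly over the 14 libraries. Depth was 14546176 to 23314792 counts per library, and limits for counts of 0 cover counting error only. Alternatives were DESeq2 1.42.0, its size factors, no filter, the replicate number as a block, other thresholds, leaving out each library, and, added after the data were seen, leaving out sham libraries by Esr1. Promoters are from RefSeq. The scripts were tested on simulated data. Figures used Python 3.11.15 and matplotlib 3.10.9.

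The members and gene lists were chosen with earlier results of these data known. Per-library values and fits are given for genes with an adjusted or unadjusted p under 0.05 in a comparison, called by the authors, or among the 5 highest counts, and other members by totals and ranges. Of the 69 other cycle genes, those called or with the 3 smallest p within a label are named.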

Additional observations from a re-analysis of the deposited data

Results flagged for a closer look

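Within each group of 4 libraries a single library standing apart from the other 3 was looked for with Dixon's test. Of 94 such groups of values, those of the 35 genes and of sums over sets of them in Rad KO TAC and WT TAC, 3 were marked, where chance alone marks about 1 in 20. Rrm2 stood at 5.004 CPM in Rad KO TAC 4, with 2.326 to 2.738 CPM in the other Rad KO TAC libraries. Aurka stood at 1.836 CPM in WT TAC 3, with 1.116 to 1.18 CPM in the others of its group. Ect2 was at 0.0 CPM in WT TAC 1, with 0.725 to 0.858 CPM in the others.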

How the results depend on the processing

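Alternatives were followed mainly for fold changes with an unadjusted p under 0.05, so most of those near 0 were left out. None of those followed was reversed: of 885 values 859 kept their direction and side of the threshold, 20 lost the threshold and 6 passed it. Other directions did change. The genes above 0 after TAC in WT went from 16 to 22 of 34 without WT TAC 1, and to 13 of 34 without WT TAC 3. Without WT TAC 1 they went from 26 to 13 of 35 for Rad KO against WT in TAC. In Rad KO, 1 of the genes was called higher after TAC with DESeq2, 1 at an adjusted p under 0.1 (Ccnd2) and 0 to 1 when 1 library was left out (Ccnd1, 0.56, adjusted p = 0.0391, without Rad KO TAC 2). In WT 1 was called lower at an adjusted p under 0.1 (Aurkb). Over both labels the 2 called genes became 1 without a filter on low counts, 1 with the replicate number as a block, 1 without WT sham 1 and Rad KO sham 2, 0 at an adjusted p under 0.01, and 0 to 5 when 1 library was left out (0 without WT sham 2, 5 without WT TAC 1). With the block 4 of 35 (11.4%, beside 14.1% of all genes) were higher over both labels at an unadjusted p under 0.05. Replicate numbers did not pair the libraries: same-number libraries of different groups had correlations of deviations of -0.1423 to 0.1421 over 19 pairs, and 4 of 14 libraries correlated best with their own number. With Rad KO against WT, the genes above 0 in sham numbered 9 without WT sham 1 and Rad KO sham 2 and 3 to 10 with 1 library left out, and in TAC 13 to 28.

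The mean summed level per 1000000 was 166, 125, 164 and 165.0 in Rad KO TAC, Rad KO sham, WT TAC and WT sham without Ccnd1 and Ccnd2, and 78.8, 55.9, 80.7 and 75.04 for mitotic roles alone. With TMM scaling the mean of Rad KO sham was 315. With 1 library left out the means were 395 to 413, 292 to 305, 397 to 477 and 375 to 383.

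Called genes among all tested moved further. In Rad KO the 239 called became 732 with DESeq2, 571 without the filter, 431 with the block, 0 without Rad KO sham 1 and 3, 16 and 560 at thresholds of 0.01 and 0.1, and 9 to 536 with 1 library left out. In WT the 442 became 910, 782 without the filter, 0 without WT sham 2 and 3, 59 and 842, and 15 to 614. Over both labels the 1643 became 1018 without the low-Esr1 sham libraries, 600 and 2570, and 1027 to 2064. The 0 called became 6 with DESeq2 and 0 to 4 in the difference, and 15 and 0 to 1 in sham. In TAC the 2 became 93, 21 without the filter, 1 with the block, 58 without the low-Esr1 sham libraries, 1 and 27, and 1 to 32.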
